A study of Mus musculus with 7 samples.

Results

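The proteasome subunit genes of mouse liver were examined in TET1 KO and WT mice fed an HFD. The genes were those whose symbol in the deposited tables begins with Psm, a letter from a to g and a number, except Psmb8 and Psmb9, with at least 10 counts in every library. Of 54 symbols that fit the pattern, Psmb8 and Psmb9 were left out by name, and 45 of the others met the count minimum. These 45 genes were among 51426 genes listed and 14754 genes tested. The count minimum left out 7 symbols, namely Psma8, Psmb11, Psmc3ip and the pseudogenes Psmb5-ps, Psmb6-ps, Psmb6-ps2 and Psmb7-ps2. Psmc3ip encodes a meiotic recombination factor and shares only its name with the ATPase Psmc3. The genes nearest to the minimum were Psmd10, whose lowest count was 56, Psmg4 with 110 and Psmg2 with 139 on the inside, and Psmc3ip with 3, Psmb6-ps2 with 1 and Psmb7-ps2 with 0 on the outside. The rule used no test between the genotypes, but a gene low in a single genotype, as Psma8 was, could miss the minimum through that genotype.

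RNA was taken from hepatic tissue of male C57BL/6J mice, 3 WT and 4 TET1 KO, all fed an HFD for 16 weeks from 8 weeks of age. The TET1 KO mice lacked Tet1 in the whole body from the germline, so that a change in liver RNA cannot be assigned to loss of the gene in hepatocytes, and the labels write their genotype as TET-1-TKO. The knockout line is B6;129S4-Tet1tm1.1Jae/J by the study's methods, a name that gives a mixed B6 and 129S4 origin, while the labels give C57BL/6J for both groups. The WT mice were littermate controls on the same diet. The 7 libraries held between 15005277 and 22746138 counts. Tet1 itself had 1 to 4 counts in the WT livers and 1 to 4 in the TET1 KO livers, near the floor of 3 counts, so its RNA did not check the labels. The 6 hepatocyte markers examined summed to between 67717 and 84964 CPM in WT livers and between 83105 and 89244 CPM in TET1 KO livers, where CPM is the count scaled to library size after TMM normalization, which adjusts the library size for composition.

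The 26S proteasome degrades proteins tagged with ubiquitin. Its 20S core particle is a barrel of stacked rings, with outer rings of alpha subunits that gate the entry and inner rings of beta subunits, of which Psmb5, Psmb6 and Psmb7 carry the constitutive catalytic sites. The 19S cap holds a ring of Psmc ATPases that unfold the substrate and Psmd subunits that bind ubiquitin and remove it. In immune cells, and in other cells after interferon gamma, Psmb8, Psmb9 and Psmb10 replace the constitutive catalytic subunits to form the immunoproteasome, and Psme1 and Psme2 form a cap that favours the making of antigenic peptides. When proteasome activity is low, the transcription factor encoded by Nfe2l1 is released from the endoplasmic reticulum, deglycosylated by the product of Ngly1, cut by the product of Ddi2, and then activates proteasome genes through antioxidant response elements in their promoters.

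The promoter stretches that hold this element are shown so that the letters searched can be seen in core, cap and chaperone genes. The core letters TGACNNNGC were searched on both strands from 250 bases before to 50 bases after each gene's start in RefSeq promoters of GRCm38.p6, in which 38 of the 45 genes had an entry, and 6 of these 38 (15.8%) held a match, against 13.99% of 27025 genes. The 6 genes were Psmb5, Psmb6, Psmc6, Psmd9, Psmd12 and Psme4, and 5 of their matches lay wholly before the start that the RefSeq entry uses and are given 5′ to 3′ on the strand of the gene with the matched letters in capitals. Where the capitals begin with GC, the match lies on the opposite strand. The Psmb6 match, at the end of its stretch, lies inside the RefSeq span of that gene, which begins at 70525324. It is therefore before the start only in the promoter entry.
Psmb5, chr14:54618008-54618067, minus strand: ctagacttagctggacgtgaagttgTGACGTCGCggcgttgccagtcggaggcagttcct
Psmb6, chr11:70525297-70525356, plus strand: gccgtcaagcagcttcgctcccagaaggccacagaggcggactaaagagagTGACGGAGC
Psmc6, chr14:45329574-45329633, plus strand: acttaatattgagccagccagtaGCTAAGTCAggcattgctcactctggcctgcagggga
Psmd12, chr11:107479278-107479337, plus strand: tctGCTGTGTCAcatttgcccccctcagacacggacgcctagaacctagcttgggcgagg
Psmd9, chr5:123228130-123228189, plus strand: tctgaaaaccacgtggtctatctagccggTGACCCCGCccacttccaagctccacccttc
The reordered letters TGCANNNGC, searched in the same way, were found in 15.8% of the proteasome genes and 16.2% of all genes, and the CCAAT box in 31.6% and 41.1%. The share of proteasome genes with the element was thus close to that of all promoters, and within these windows the letters did not set the family apart. The genes with the element had a median log2 fold change of -0.04 between TET1 KO and WT livers and those without it -0.03, so the 2 groups of genes lay at nearly the same value.

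None of the 45 proteasome genes passed the test between the genotypes. With edgeR's quasi-likelihood test and p-values adjusted over all 14754 genes, 0 of 45 genes were called higher and 0 called lower with TET1 KO at an adjusted p under 0.05, where 0.874% of all genes tested were called higher and 1.15% lower. At an unadjusted p under 0.05, 9 genes were higher and 4 lower, against 13.6% and 12.7% of all genes. At an adjusted p under 0.1, edgeR called 2 genes higher, Psmb10 and Psmb3, and 1 lower, Psmd5, against 5.7% and 5.59% of all genes. DESeq2 at 0.05 called 2 genes higher, Psmb10 and Psmb3, and 0 lower, where it called 4.65% of all genes higher and 4.82% lower. In 6 genes the lowest TET1 KO liver was above the highest WT liver, which held for 11.7% of all genes, and in 5 genes the highest TET1 KO liver was below the lowest WT liver, which held for 10.8%. These shares of the family, 13.3% and 11.1%, lay near the background. The 6 genes include the near copies Psme2 and Psme2b, and without Psme2 they were 5 of 44. The log2 fold changes ran from -0.81 for Psmd13 to 0.62 for Psmb3, with a median of -0.04 against 0.01 over all genes, and 19 of 45 genes were above 0 and 26 below, against 51.1% of all genes above 0. The family median was -0.0078 without TET1 KO replicate 1 (22 above 0 and 23 below), -0.097 without TET1 KO replicate 2 (18 and 27), -0.086 without WT replicate 3 (17 and 28) and -0.14 with library size only (16 and 29). Leaving out single mice moved the value of 29 of the 45 genes by over 1.5 times in at least 1 of 7 fits, and 9 of these genes changed sign. Summed over the 45 genes, the family held 3194, 3165 and 3154 CPM in the WT livers and 3047, 3411, 3278 and 3205 CPM in the TET1 KO livers. The range of the TET1 KO livers enclosed that of the WT livers, and TET1 KO replicate 1 was the lowest of the 7 mice and TET1 KO replicate 2 the highest.

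**Figure D1:**
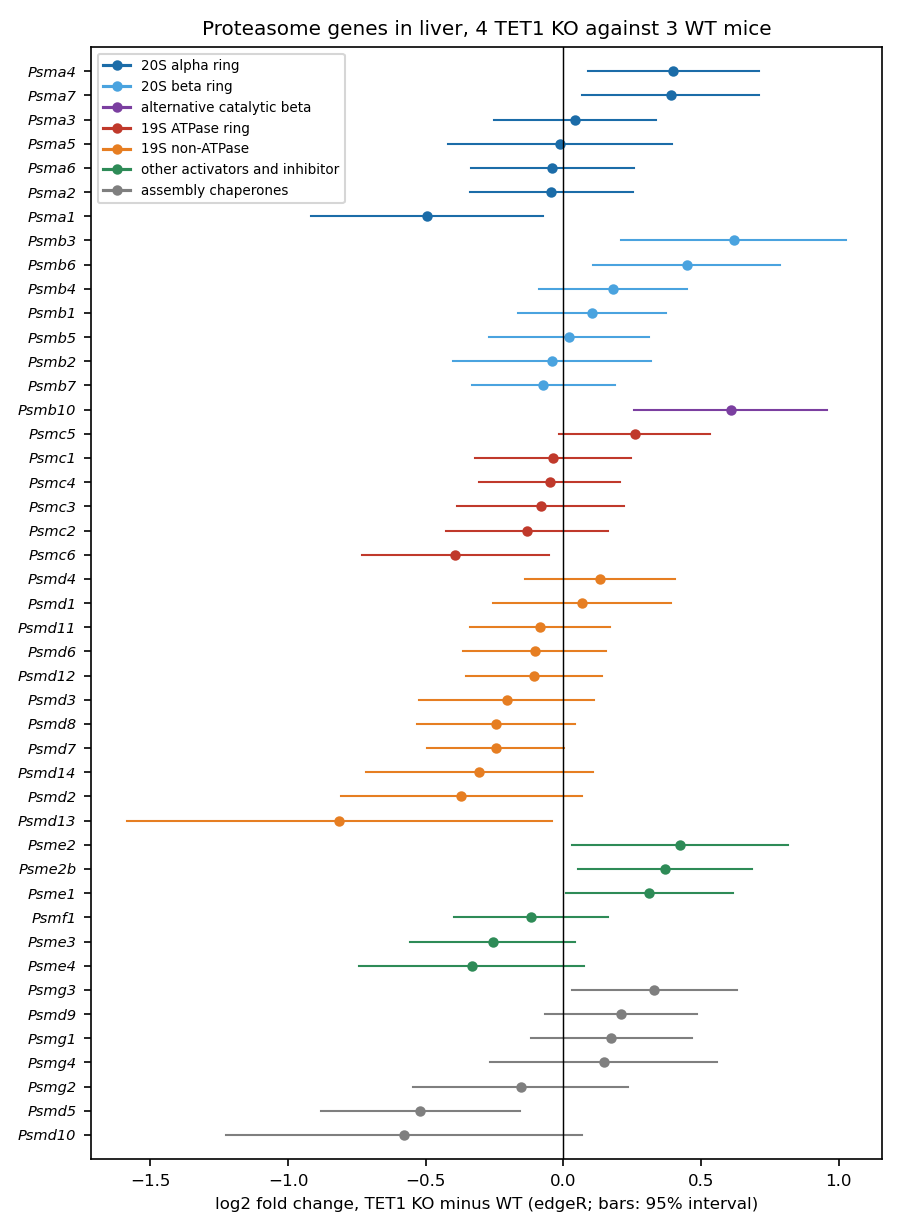
Log2 fold change of each of the 45 proteasome genes between TET1 KO and WT livers (x axis), with the 95% interval of edgeR's fit as a bar and the genes grouped and coloured by subcomplex on the y axis. Psmb3 at 0.62 and Psmb10 at 0.61 lie farthest to the right and Psmd13 at -0.81 farthest to the left, and most genes of the 19S cap lie left of 0.

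The alpha ring of the core particle held 7 genes, with 3 above 0, 4 below and a median log2 fold change of -0.01. The median was 0.039 without WT replicate 1, 0.036 without TET1 KO replicate 1, -0.030 without WT replicate 2 or TET1 KO replicate 3, -0.024 without TET1 KO replicate 4 and -0.080 without TET1 KO replicate 2, so its sign rested on single mice. Psma4, an alpha ring subunit (chr9:54950781-54958034), had 132, 104 and 130 CPM in the WT livers and 168, 175, 161 and 140 CPM in the TET1 KO livers. All TET1 KO livers lay above all WT livers in Psma4, with a log2 fold change of 0.40 (95% interval 0.09 to 0.71) and an adjusted p of 0.115 in edgeR's test. RefSeq places AY074887 over Psma4, and since the strand setting of the counting is not given, reads of overlapping genes cannot be told apart. Psma1 (chr7:114264550-114276116) went the other way, with 77.1, 94.5 and 83.8 CPM in WT livers and 39.2, 68.9, 62.3 and 71.0 CPM in TET1 KO livers. Here all TET1 KO livers lay below all WT livers, TET1 KO replicate 1 farthest, and the log2 fold change was -0.50 (95% interval -0.92 to -0.08, edgeR adjusted p = 0.137). Psma7 had a log2 fold change of 0.39, Psma3 of 0.04, Psma5 of -0.01, and Psma2 and Psma6 of -0.04 each. Opposite values within a ring whose subunits are built in at equal numbers were thus found at the RNA level for Psma1 and Psma4, neither of which passed the adjusted threshold.

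Psma8, the testis counterpart of Psma7, stayed outside the count minimum. Its reads numbered 14, 37 and 15 among the WT mice, and 0, 0, 3 and 2 among the TET1 KO mice. The TET1 KO livers were at or below the floor of 3 counts and the WT livers above it, and the groups did not overlap. Psma8 entered the fit through its WT reads, and its p there (adjusted p of 0.0177 by edgeR and 0.00087 by DESeq2) is given as a description, since the gene passed the filter on low counts through the group where it was high. It missed the count minimum only through the TET1 KO livers and is not among the 45 genes. Psma8 shares sequence with Psma7, so the assignment of so few reads is uncertain.

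Of the 7 constitutive beta ring genes 5 were above 0 and 2 below, with a median log2 fold change of 0.10, which was 0.051 without TET1 KO replicate 2, 0.067 without WT replicate 2 and 0.16 without TET1 KO replicate 1. Psmb3, a beta subunit without a catalytic site (chr11:97703434-97713500), had 50.5, 34.2 and 41.4 CPM in the WT livers and 78.4, 66.9, 64.9 and 48.2 CPM in the TET1 KO livers. TET1 KO replicate 4 lay below the highest WT liver and the other 3 TET1 KO livers lay above all WT livers. The level was 1.54-fold (95% interval 1.16 to 2.04) that of WT, and the adjusted p was 0.0851 by edgeR and 0.0387 by DESeq2. Psmb6, which carries the caspase-like site (chr11:70525324-70527858), had 168, 122 and 150 CPM in WT livers and 222, 213, 198 and 168 CPM in TET1 KO livers. TET1 KO replicate 4 again lay at the level of WT replicate 1, and the log2 fold change was 0.45 (95% interval 0.11 to 0.79, edgeR adjusted p = 0.111). Psmb7, which carries the trypsin-like site, had the lowest log2 fold change of the ring. It had 139, 134 and 127 CPM in WT livers and 118, 123, 136 and 131 CPM in TET1 KO livers. The groups overlapped in Psmb7, with a log2 fold change of -0.07. The other values were 0.18 for Psmb4, 0.10 for Psmb1, 0.02 for Psmb5, which carries the chymotrypsin-like site, and -0.04 for Psmb2.

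Psmb10 had the smallest p of the family. It encodes the inducible subunit that takes the place of Psmb7 in the immunoproteasome (chr8:105935728-105938392). Its level was 25.2, 21.5 and 30.7 CPM in the WT livers and 39.9, 42.1, 32.5 and 42.7 CPM in the TET1 KO livers. The TET1 KO livers were all above the WT livers, TET1 KO replicate 3 by the least. The level was 1.52-fold (95% interval 1.20 to 1.94) that of WT, with an adjusted p of 0.0665 in edgeR's test and 0.0189 in DESeq2. Psmb8 and Psmb9, the other inducible catalytic subunits, which the gene rule leaves out, differed by 0.21 and 0.11 on the log2 scale, with adjusted p of 0.516 and 0.683 by edgeR. Leaving out a mouse moved Psmb8 between 0.084 (without TET1 KO replicate 2) and 0.36 (without WT replicate 3), and Psmb9 between 0.0022 (without WT replicate 2) and 0.23 (without WT replicate 3). Psmb8 had 28.9, 27.1 and 38.5 CPM in WT livers and 26.2, 44.4, 33.6 and 41.3 CPM in TET1 KO livers, and Psmb9 had 18.3, 15.9 and 22.0 CPM and 16.0, 21.6, 21.4 and 21.9 CPM. In both genes the groups overlapped, and TET1 KO replicate 1, which was high in Psmb10, was the lowest TET1 KO liver.

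**Figure D2:**
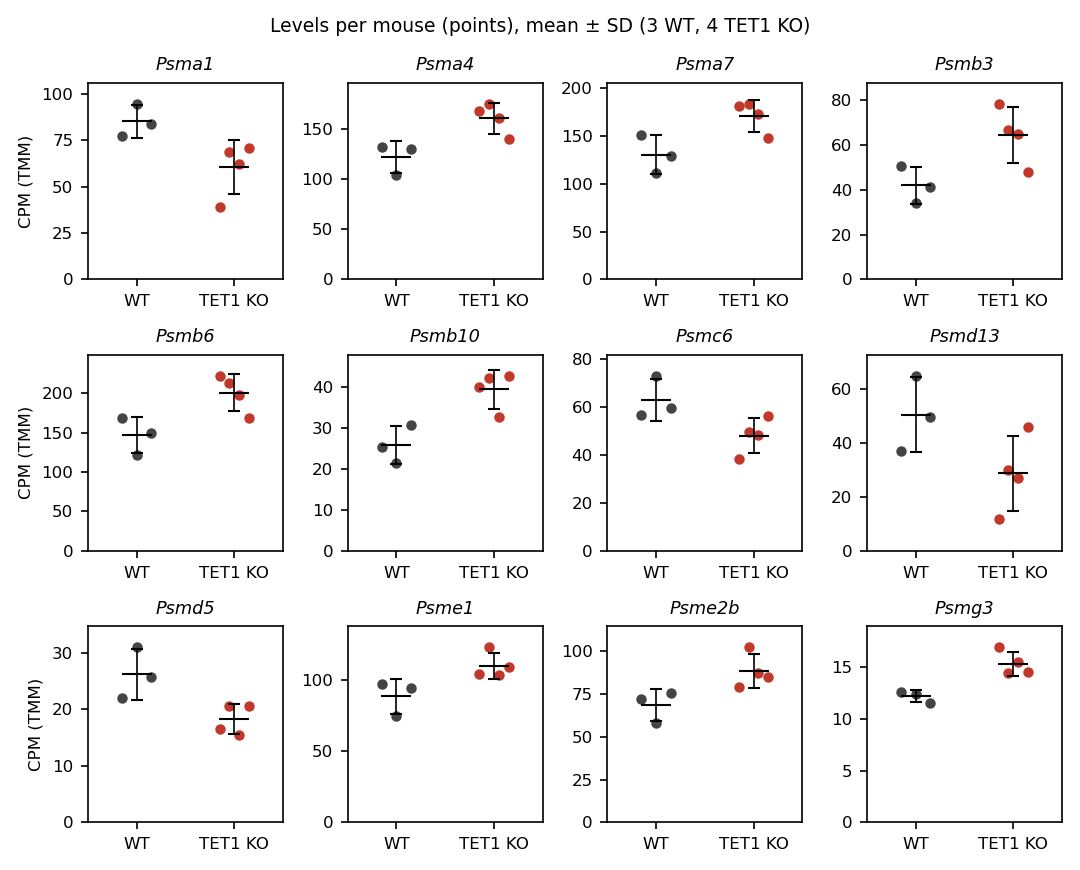
CPM after TMM normalization (y axis, from 0) of 12 proteasome genes in each mouse (points), with the mean and SD of the 3 WT and 4 TET1 KO mice. The points do not overlap between the genotypes in Psma1, Psma4, Psmb10, Psmc6, Psmd5, Psme1, Psme2b and Psmg3, and overlap in Psma7, Psmb3, Psmb6 and Psmd13.

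Within each library, the count of an inducible catalytic subunit was divided by that of the subunit it replaces, which leaves out any scaling of the libraries. The ratio of Psmb10 to Psmb7 was 0.181, 0.161 and 0.242 in WT livers and 0.339, 0.342, 0.240 and 0.327 in TET1 KO livers. It was higher in 3 TET1 KO livers than in any WT liver, and TET1 KO replicate 3 lay just below WT replicate 3. The mean log2 ratio was higher by 0.69 in TET1 KO livers (exact two-sided permutation test, p = 0.0857, adjusted p = 0.214 over 3 ratios), where the 35 splits of 7 mice allow no p under 0.0286. The ratio of Psmb8 to Psmb5 was 0.394 ± 0.0959 (SD, n = 3) in WT and 0.442 ± 0.0988 (SD, n = 4) in TET1 KO livers (exact two-sided permutation test, p = 0.514). For Psmb9 to Psmb6 the values were 0.129 ± 0.0193 (SD, n = 3) and 0.103 ± 0.0240 (SD, n = 4; exact two-sided permutation test, p = 0.143). The Psmb9 ratio thus had its mean on the opposite side from the Psmb10 ratio, and none of the 3 ratios passed the test. Adjusted over 3 ratios, a single ratio with fully separate groups would reach 0.0857 at best, so the design could not bring 1 ratio alone under 0.05.

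**Figure D3:**
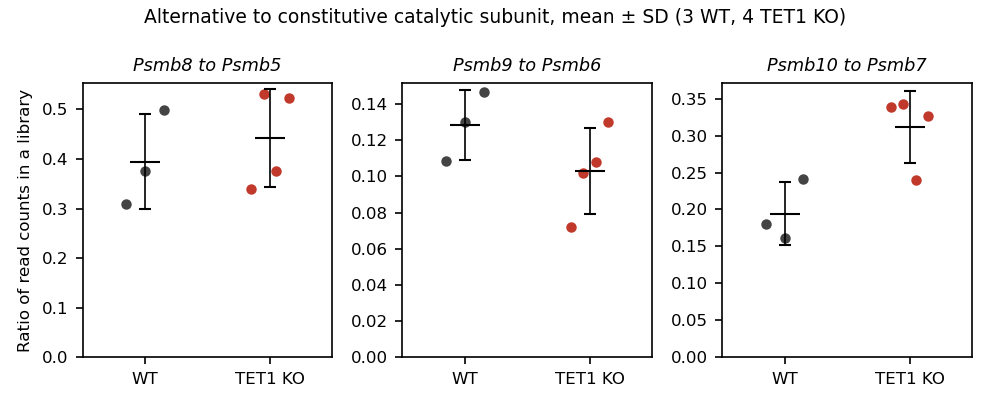
Ratio of the read count of each inducible catalytic subunit to that of the constitutive subunit it replaces (y axis, from 0) in each mouse, with the mean and SD of the 3 WT and 4 TET1 KO mice. For Psmb10 to Psmb7, 3 TET1 KO livers lie above 0.3 and 1 lies at 0.240 among the WT livers.

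Among the other activators and the inhibitor, 3 of 6 genes were above 0 and 3 below, with a median log2 fold change of 0.10, which was 0.0032 with library size only and 0.031 without TET1 KO replicate 2. Psme2 and Psme2b are near copies, and with Psme2 left out, a choice made after seeing the data, 2 of 5 genes were above 0 and the median was -0.12. The 3 above 0 were the genes of the interferon-responsive cap, Psme1, Psme2 and Psme2b, and in each of them the 2 groups did not overlap, as in 11.7% of all genes on the higher side. Psme1 (chr14:55578494-55581527), which RefSeq places over part of Emc9, had 97.1, 74.5 and 94.2 CPM in WT livers and 104, 123, 103 and 109 CPM in TET1 KO livers. The gap between the groups in Psme1 was small, and the log2 fold change was 0.31 (95% interval 0.01 to 0.61, edgeR adjusted p = 0.178). Psme2 (chr14:55587440-55591101) had 8.96, 6.22 and 8.39 CPM in WT livers and 10.4, 12.0, 9.16 and 10.6 CPM in TET1 KO livers. This gave a log2 fold change of 0.42 (edgeR adjusted p = 0.165). Psme2b (chr11:48945345-48946410, overlapped by 9930111J21Rik1) had 72.1, 57.9 and 75.7 CPM in WT livers and 79.0, 103, 87.4 and 85.3 CPM in TET1 KO livers. This gave a log2 fold change of 0.37 (edgeR adjusted p = 0.139). Neither passed the adjusted threshold.

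Psme2 and Psme2b cannot be read as separate genes in these tables. Their coding sequences in GENCODE M1 are 720 bases long each and differ at 5 positions (99.3% identity), with a longest identical run of 311 bases. The stretch with most differences, bases 454 to 543 of the coding sequence, is given with the differing bases in capitals.
Psme2: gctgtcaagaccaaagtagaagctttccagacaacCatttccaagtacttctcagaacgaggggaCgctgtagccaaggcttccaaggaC
Psme2b: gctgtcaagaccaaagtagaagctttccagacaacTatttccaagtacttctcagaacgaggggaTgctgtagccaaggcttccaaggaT
Psme2 took 10.2% ± 0.719 (SD, n = 3) of the counts of the pair in WT livers and 10.6% ± 0.914 (SD, n = 4) in TET1 KO livers, so the split of reads was alike in both genotypes. The pair summed to 81.0, 64.1 and 84.1 CPM in WT livers and 89.4, 115, 96.6 and 95.8 CPM in TET1 KO livers, and the summed groups did not overlap.

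The 3 genes of this group below 0 belong to activators and an inhibitor outside the interferon response. Psme4, the nuclear single-chain activator (chr11:30771775-30881150), had 50.9, 93.2 and 63.0 CPM in WT livers and 52.9, 54.8, 51.4 and 60.2 CPM in TET1 KO livers. WT replicate 2 stood above the other 6 livers in Psme4, and the log2 fold change was -0.33 (95% interval -0.74 to 0.07, edgeR adjusted p = 0.269) and -0.061 without that liver. Psme3, the nuclear cap subunit that works without ATP, had a log2 fold change of -0.26, which was -0.12 without WT replicate 2, with all TET1 KO livers below all WT livers. Psmf1, an inhibitor of the core particle, had -0.12.

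The levels of immune cell markers are set beside Psmb10 and the Psme cap because immune cells express these genes at high levels, and in whole liver more RNA per cell and more cells of a type cannot be told apart. The 6 Kupffer cell and macrophage markers summed to between 199 and 320 CPM in WT livers and between 150 and 307 CPM in TET1 KO livers. The sums hold only markers that passed the filter on low counts. For 4 of the 6 T and NK cell markers they were 1.37 to 3.48 CPM in WT and 2.30 to 4.86 CPM in TET1 KO livers. For 5 of the 6 B and plasma cell markers they were 2.45 to 5.56 CPM and 4.87 to 10.5 CPM. For 5 of the 6 dendritic cell and MHC class II markers they were 128 to 235 CPM and 142 to 327 CPM. In each of these lists the groups overlapped and no marker was at 0 in every library. The test covered all 6 macrophage markers, 4 of the 6 T and NK cell markers, and 5 of 6 in each of the other 2 lists, and edgeR called 0 of those tested. The summed level of 5 cholangiocyte markers did not overlap, with 29.7 to 37.8 CPM in WT and 46.1 to 68.0 CPM in TET1 KO livers, and 0 of the 5 were called. The 5 endothelial markers did not overlap either, in the other direction, with 126 to 128 CPM in WT and 106 to 124 CPM in TET1 KO livers, and the 5 stellate markers overlapped, with 188 to 320 CPM and 172 to 238 CPM. In these lists too 0 markers were called. The part of these cells in the levels of Psmb10, Psme1 and Psme2b was not tested.

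The 6 ATPase genes of the cap had 1 value above 0 and 5 below, with a median log2 fold change of -0.07, which lay between -0.12 without TET1 KO replicate 2 and -0.030 without TET1 KO replicate 1. Psmc6 (chr14:45329823-45349074) had 56.8, 73.2 and 59.5 CPM in WT livers and 38.5, 49.7, 48.2 and 56.2 CPM in TET1 KO livers. All TET1 KO livers lay below all WT livers, TET1 KO replicate 4 by under 1 CPM, with a log2 fold change of -0.39 (95% interval -0.73 to -0.05) and an edgeR adjusted p of 0.142. Psmc5 (chr11:106256185-106263112), with 84.0, 70.0 and 75.3 CPM in WT livers and 92.9, 89.9, 99.2 and 83.9 CPM in TET1 KO livers, was the ATPase above 0. The highest WT liver lay just above the lowest TET1 KO liver in Psmc5, and the log2 fold change was 0.26 (95% interval -0.01 to 0.53, edgeR adjusted p = 0.208). The remaining ATPases lay close to 0, at -0.04 for Psmc1, -0.05 for Psmc4, -0.08 for Psmc3 and -0.13 for Psmc2.

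Among the 11 non-ATPase cap genes that fit the symbol rule, 2 were above 0 and 9 below. Their median log2 fold change was -0.21, which was -0.13 without TET1 KO replicate 1 and -0.28 without WT replicate 1. Psmd13, a lid subunit (chr7:140882394-140898642, overlapped by Gm15542), had the lowest value of the family, with 37.1, 64.9 and 49.4 CPM in WT livers and 11.7, 29.8, 27.2 and 46.0 CPM in TET1 KO livers. The mice varied widely in Psmd13, from TET1 KO replicate 1 as the lowest to WT replicate 2 as the highest, and TET1 KO replicate 4 lay among the WT livers. The level was 0.569-fold (95% interval 0.333 to 0.971) that of WT, with an edgeR adjusted p of 0.171. Psmd4, a ubiquitin receptor (chr3:95032688-95042614), had the highest value of the list, with 117, 97.0 and 105 CPM in WT livers and 119, 120, 120 and 106 CPM in TET1 KO livers. TET1 KO replicate 4 lay at the level of WT replicate 3, and the log2 fold change was 0.13 (edgeR adjusted p = 0.506). Psmd7, which pairs with the deubiquitinase in the lid, was lower in all TET1 KO livers than in all WT livers, with a log2 fold change of -0.25 (95% interval -0.49 to 0.00) and an edgeR adjusted p of 0.192. The deubiquitinase itself, Psmd14, had a log2 fold change of -0.30, and the scaffold subunits Psmd2 and Psmd1 had -0.37 and 0.07. Without TET1 KO replicate 1 Psmd14 was at -0.15 and Psmd2 at -0.21, and without WT replicate 2 Psmd2 was at -0.24. The lid subunits Psmd8, Psmd3, Psmd12, Psmd6 and Psmd11 had -0.24, -0.21, -0.11, -0.10 and -0.09.

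**Figure D4:**
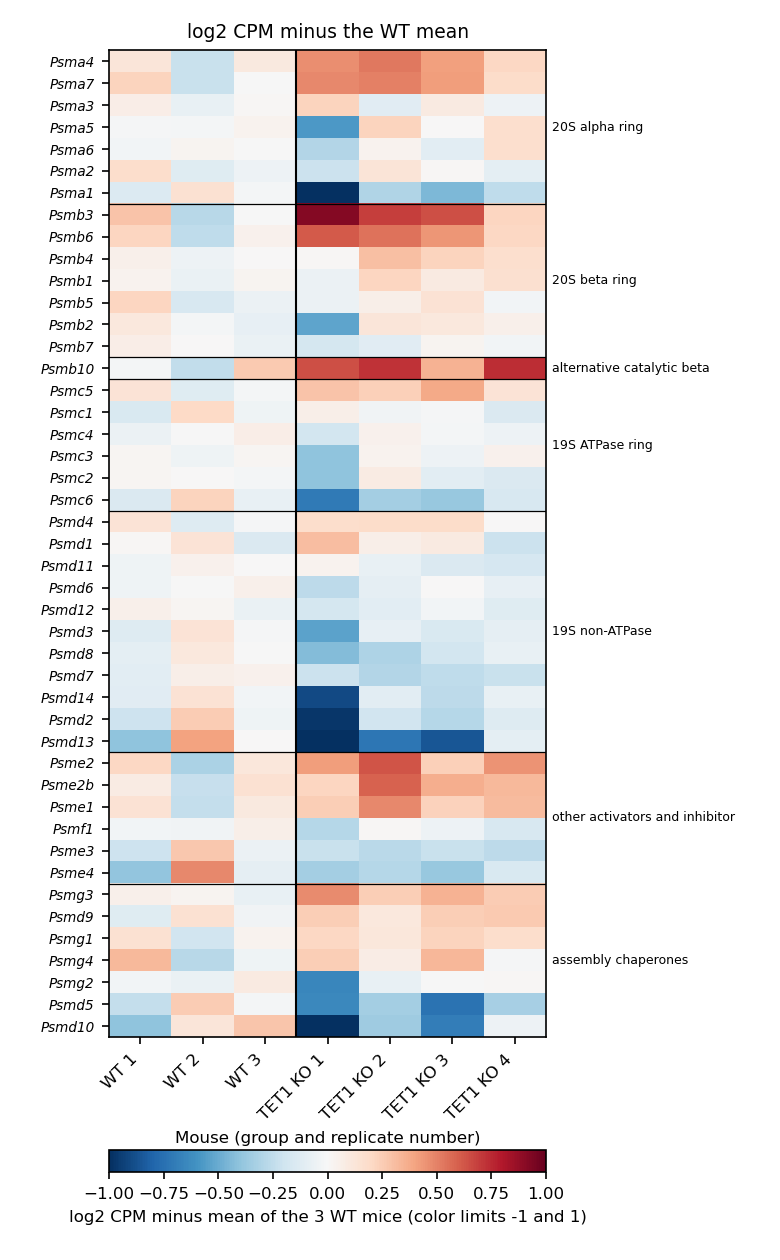
Log2 CPM of each proteasome gene minus the mean of the 3 WT mice (colour, limits -1 and 1, red higher and blue lower) in each mouse (columns), with genes in rows grouped by subcomplex. TET1 KO replicate 1 is the lowest of the 7 mice in 20 of the 45 genes, and Psmd13, Psma1 and Psmd10 are beyond or near the lower colour limit there.

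Core and cap genes were then set side by side in each mouse. The 14 genes of the core rings had a median log2 fold change of 0.03, with 8 above 0 and 6 below, and the 17 genes of the cap -0.11, with 3 above 0 and 14 below. The mean log2 CPM of the core rings minus that of the cap was 0.08, -0.26 and -0.07 in the WT livers and 0.27, 0.22, 0.18 and 0.08 in the TET1 KO livers. TET1 KO replicate 4 and WT replicate 1 lay next to each other at 0.08, and WT replicate 2 was the lowest of the 7 mice. In TET1 KO replicate 1 the difference came with a low cap mean of 5.99, where the other 6 mice had 6.24 to 6.45. Without WT replicate 2, the median log2 fold change was -0.02 for the core rings, with 6 genes above 0 and 8 below, and -0.11 for the cap, with 4 above 0 and 13 below, so the core median changed sign without that liver. It was also below 0 with library size only, at -0.062, and without TET1 KO replicate 3, at -0.0083. These means and medians describe the genes as listed and carry no test.

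The value of a proteasome gene went with the length of its mRNA. The length is that of the coding transcript with the longest coding sequence in GENCODE M1, which was found for all 45 genes and for 84.7% of all genes tested. Core ring mRNAs had a median length of 1101 bases and cap mRNAs of 1785 bases. Spearman's rho between length and log2 fold change was -0.60 across the 45 genes, which share the same 7 libraries and are not independent, and -0.09 across 12504 genes. The 25 proteasome mRNAs of up to 1500 bases had a median log2 fold change of 0.15 and the 20 longer mRNAs -0.17, against 0.12 and -0.02 for all genes tested. Of the 9 proteasome mRNAs of up to 1000 bases 8 were above 0, and of the 8 between 1500 and 2000 bases 0 were. The 4 cap mRNAs of up to 1500 bases, Psmc4, Psmc5, Psmd4 and Psmd6, had a median of 0.04, near the 0.06 of the 12 core mRNAs of that length, while the 13 longer cap mRNAs had -0.21. The 2 longer core mRNAs, Psma2 and Psma3, had -0.04 and 0.04. Relative to the mean of the 7 mice, rho between length and log2 CPM was 0.06, 0.68 and 0.51 in the WT livers and -0.32, -0.53, -0.61 and -0.22 in the TET1 KO livers for the proteasome genes. Over all genes with a length it was -0.09, 0.19 and 0.00 in the WT livers and 0.09, -0.18, -0.07 and -0.18 in the TET1 KO livers. The relation was weaker there except in WT replicate 1, and its sign was opposite in WT replicate 1 and TET1 KO replicate 1. The highest value was again that of WT replicate 2. Without that liver, rho between length and log2 fold change across the 45 genes was -0.51. The part of mRNA length in the difference between core and cap was not tested.

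**Figure D5:**
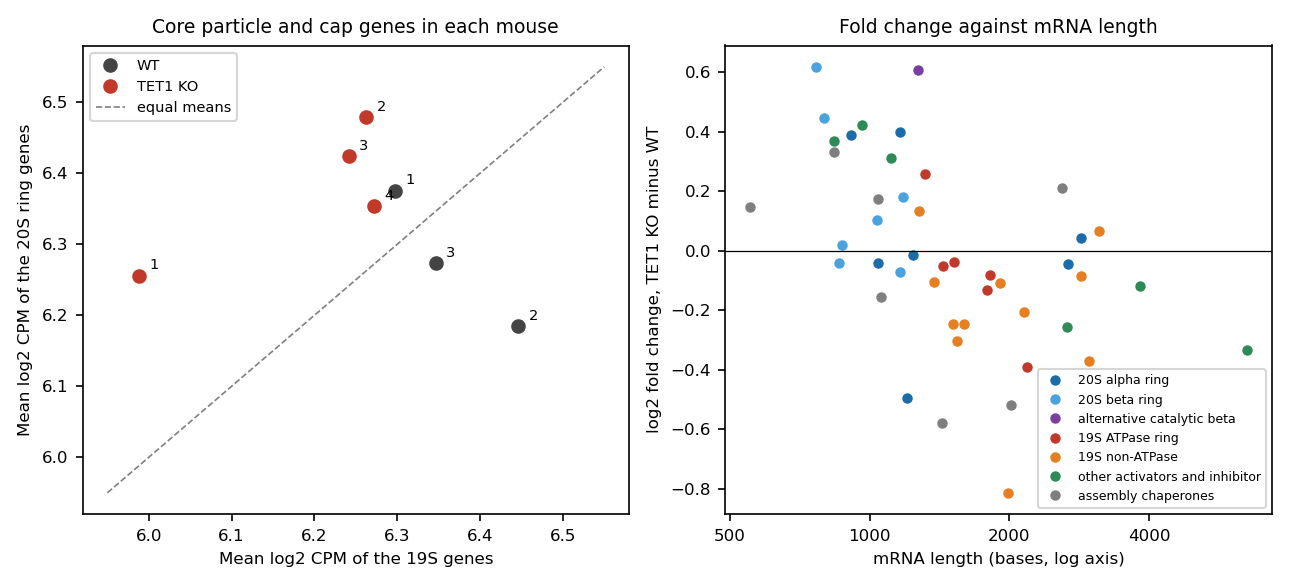
Left, mean log2 CPM of the 14 core ring genes (y axis) against that of the 17 cap genes of the symbol rule (x axis). Each point is a mouse, numbered by replicate, and the dashed line marks equal means. All 4 TET1 KO mice and WT replicate 1 lie above the line. Right, log2 fold change of each proteasome gene (y axis) against the length of its mRNA in bases (x axis, log scale), coloured by subcomplex, with higher values among the shorter mRNAs (rho of -0.60 over 45 genes).

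Levels of the subunit genes per kilobase of mRNA differed within each particle. In WT livers the core ring genes ran from 7.63 CPM per kilobase in Psma3 to 184 in Psmb6, with a median of 93.4. The 17 cap genes ran from 25.4 in Psmd13 to 83.3 in Psmd4, with a median of 41.1. The Psma3 value depends on the transcript length used, 2846 bases, and RefSeq places 3110056K07Rik over that gene. Psmb10 was at 20.3 ± 3.63 (SD, n = 3) CPM per kilobase in WT livers and at 30.9 ± 3.67 (SD, n = 4) in TET1 KO livers, and Psmb7, which it can replace, at 115 ± 5.33 (SD, n = 3) and 109 ± 6.96 (SD, n = 4). The inducible subunit thus stayed well below its constitutive counterpart in every mouse.

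The 7 genes of assembly chaperones, which build the particles and leave them, had 4 values above 0 and 3 below, with a median log2 fold change of 0.15, which was 0.0059 without WT replicate 2, 0.072 without TET1 KO replicate 3 and 0.052 with library size only. Psmg3, of a chaperone pair for the alpha ring (chr5:139823613-139826894), had 12.6, 12.4 and 11.5 CPM in WT livers and 16.9, 14.4, 15.4 and 14.5 CPM in TET1 KO livers. The groups did not overlap in Psmg3, with a log2 fold change of 0.33 (95% interval 0.03 to 0.63) and an edgeR adjusted p of 0.158. Psmd5, a chaperone of the ATPase ring (chr2:34852087-34870965), had 22.0, 31.0 and 25.7 CPM in WT livers and 16.6, 20.6, 15.5 and 20.6 CPM in TET1 KO livers. The TET1 KO livers were all lower in Psmd5, which had the smallest p of the genes below 0, with a level 0.698-fold (95% interval 0.543 to 0.896) that of WT and an edgeR adjusted p of 0.0944. Psmd10, another chaperone of the ATPase ring and the oncoprotein known as gankyrin, lies on chromosome X at chrX:140948425-140956711 beside and partly over Atg4a. It had 7.53, 10.8 and 12.0 CPM in WT livers and 3.51, 7.75, 6.14 and 9.60 CPM in TET1 KO livers. TET1 KO replicates 2 and 4 overlapped with the WT livers in Psmd10, and the log2 fold change was -0.58 (95% interval -1.23 to 0.07, edgeR adjusted p = 0.229). The chaperones Psmd9, Psmg1, Psmg4 and Psmg2 had values of 0.21, 0.17, 0.15 and -0.16. Without WT replicate 2 Psmg1 was at 0.078 and Psmg4 at 0.0059, and without TET1 KO replicate 1 Psmg2 was at -0.022, so these values were small and moved with single mice. With Psmd9 above 0 and Psmd5 and Psmd10 below, ATPase chaperones were found both above and below 0.

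Other genes of the pathway were taken from 3 lists, and the 32 listed genes that passed the filter on low counts were examined. Of these, 0 were called higher and 2 called lower with TET1 KO at an edgeR adjusted p under 0.05, against 0.874% and 1.15% of all genes tested. Ngly1, which deglycosylates the product of Nfe2l1, had 29.9, 36.3 and 28.5 CPM in WT livers and 18.2, 19.9, 18.9 and 22.6 CPM in TET1 KO livers. It fell by 0.67 on the log2 scale (standard error 0.14, edgeR adjusted p = 0.0423), with no overlap between the groups. Ubqln2, a shuttle that brings ubiquitylated proteins to the proteasome, had 13.5, 17.7 and 18.0 CPM in WT livers and 8.33, 9.72, 9.002 and 10.6 CPM in TET1 KO livers. It fell by 0.80 (standard error 0.16, edgeR adjusted p = 0.0335), again with no overlap. In the route of Nfe2l1, 3 of 7 genes were above 0 and 4 below, and among 15 genes of ubiquitin, its shuttles and segregase 9 were above 0 and 6 below. DESeq2 gave adjusted p of 0.00303 for Ngly1 and 0.00137 for Ubqln2. Leaving out a mouse ended the edgeR call of Ngly1 in 6 of 7 fits and that of Ubqln2 in 5 of 7, with log2 fold changes between -0.75 and -0.56 for Ngly1 and between -0.94 and -0.75 for Ubqln2.

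The other genes of the Nfe2l1 route did not pass the test. Nfe2l1 had a log2 fold change of -0.22 (edgeR adjusted p = 0.302), Nfe2l2, which encodes the related factor NRF2, -0.39 (edgeR adjusted p = 0.13) and Ddi2 0.22 (edgeR adjusted p = 0.295). Among 10 further subunits, assembly and bound factors, 5 were above 0 and 5 below and 0 were called. Sem1, the smallest subunit of the lid, had 63.6, 47.0 and 58.9 CPM in WT livers and 73.1, 82.6, 81.3 and 78.3 CPM in TET1 KO livers, and Pomp, which matures the core particle, had a log2 fold change of 0.02. The groups did not overlap in Sem1, whose log2 fold change of 0.48 gave an adjusted p of 0.0781 by edgeR and 0.0326 by DESeq2. Of the ubiquitin genes, Rps27a differed by 0.88 on the log2 scale, with an adjusted p of 0.0663 by edgeR and 0.0109 by DESeq2, while Ubb had a log2 fold change of 0.05.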

How the data were processed

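Liver RNA of 7 mice was analysed, each library taken as 1 mouse. The authors deposited raw read counts per Ensembl gene, and the submitters' processing notes name Trimmomatic 0.36, GSNAP, featureCounts 1.5.3 and GRCm38. The settings for strand and multiply mapped reads are not given in the sources used here, and the labels name poly(A) selection or rRNA removal. Libraries were joined by Ensembl identifier, and 5 repeated entries of 51431 were left out. The test was that of edgeR 4.0.16 under R 4.3.3 (filterByExpr, TMM, quasi-likelihood F, genotype only), and DESeq2 1.42.0 was an alternative. Log2 CPM used a prior count of 2. When this comparison was simulated with 200 genes changed by a log2 fold of 2, edgeR found 200 of them and 6 others of 14561 genes. The simulation used the same dispersion for every gene and a change larger than that of any proteasome gene. It therefore does not show whether differences of their size could be found. Ratios were compared by exact permutation, adjusted over 3 ratios. The smallest chi-square per degree of freedom between libraries of one genotype was 26.5, so none were repeats. Genes and promoters follow RefSeq GRCm38.p6. Figures were drawn with matplotlib 3.10.9. The proteasome genes and all lists were chosen with earlier results of these data known. Every proteasome gene was named, and values per mouse were given for the gene with the smallest p and those with the largest and smallest log2 fold change of each subcomplex. Values per mouse of Psma7, Psma8, Psmb6, Psmb8, Psmb9, Psme1 and Sem1 were added after they had been seen. Some genes of the pathway lists are not reported here.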

Additional observations from a re-analysis of the deposited data

Results flagged for a closer look

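In 4 of the 45 proteasome genes 1 of the 4 TET1 KO livers lay far from the other 3, by a gap that took more of the range of the group than Dixon's 95% critical value for 4 samples. Chance gives about 1 such case in 20 genes, or 2.25 cases in 45. Psmb2, a beta subunit, measured 43.7 CPM in TET1 KO replicate 1 against between 65.1 and 68.4 CPM in the others, a gap of 0.866 of the range. Psmg2, an assembly chaperone, measured 8.70 CPM in TET1 KO replicate 1 against between 13.0 and 13.8 CPM in the others, with a gap of 0.839. Psmd4, a ubiquitin receptor, measured 106 CPM in TET1 KO replicate 4 against about 120 CPM in the others, with a gap of 0.936. Psmd9, a chaperone of the ATPase ring, measured 29.3 CPM in TET1 KO replicate 2 against between 32.4 and 32.7 CPM in the others, with a gap of 0.915.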

How the results depend on the processing

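Among proteasome genes, the count of 0 called higher became 2 with DESeq2, 2 at an adjusted p under 0.1 and 1 with the replicate number as a block, and lay between 0 and 1 when each mouse was left out, where only Psmb3 without TET1 KO replicate 4 was called. The count of 0 called lower became 1 at an adjusted p under 0.1 and 3 with the replicate block. For the other pathway genes, the count of 0 called higher became 3 with DESeq2, 2 without a filter on low counts and 2 with the replicate block, and lay between 0 and 2 when each mouse was left out; the count of 2 called lower lay between 0 and 2. DESeq2's size factors in edgeR, at least 10 counts in every library and robust dispersions kept these 4 counts within 1.5 times. Scaling, filter and dispersion settings do not enter the catalytic ratios. When each mouse was left out, their log2 differences kept their signs but moved. They ran from 0.0041 to 0.35 for Psmb8 to Psmb5, from -0.46 to -0.18 for Psmb9 to Psmb6 and from 0.56 to 0.86 for Psmb10 to Psmb7. Without WT replicate 2, 38 genes of the whole table were called (0.255%), and without TET1 KO replicate 4, 891 (6.18%). With Psme2 left out as a near copy, chosen after seeing the data, the median of the activators and inhibitor went from 0.10 to -0.12. The causes were not tested.

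Same-numbered mice of the 2 genotypes did not deviate together (r of 0.209, -0.123 and -0.0964 for numbers 1 to 3), so the numbers did not pair the samples, and TET1 KO replicate 4 added nothing to the contrast in the block. The block called Psmb3 higher and Psma1, Psmd10 and Psmd13 lower, where 8.99% of all genes were called. With the block Psmc1 moved from -0.04 to 0.0051.

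Genes near 0 changed sign. Library size only moved the median of all genes from 0.01 to -0.081 and that of the alpha ring to -0.11, the beta ring to 0.011, the ATPases to -0.16 and the other cap genes to -0.30. With that scaling, Psma3 was at -0.051, Psmb5 at -0.074 and Psmd1 at -0.031, and without a filter on low counts Psmb5 was at -0.0057. When each mouse was left out, log2 fold changes ran from -0.12 to 0.039 in Psma2, from -0.022 to 0.077 in Psma3, from -0.11 to 0.14 in Psma5, from -0.12 to 0.036 in Psma6, from -0.11 to 0.090 in Psmb2, from -0.065 to 0.13 in Psmb5, from -0.12 to 0.060 in Psmc1, from -0.14 to 0.011 in Psmc3 and from -0.024 to 0.15 in Psmd1. In the same fits, Psmb10 ran from 0.49 to 0.73, Psmb3 from 0.48 to 0.76, Psmd13 from -1.14 to -0.55, the median of the cap genes from -0.16 to -0.08, that of the core rings from -0.02 to 0.11, that of the assembly chaperones from 0.0059 to 0.17, that of the activators and inhibitor from 0.031 to 0.14, and rho with mRNA length from -0.66 to -0.51. With 3 and 4 mice, the 95% interval of a proteasome gene reached 0.30 on the log2 scale to either side at the median and 0.25 to 0.77 over the 45 genes, which limits the differences that could be detected.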
